A study of Mus musculus with 6 samples.

Results

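The genes described here are 10 that define the disease-associated state of mouse microglia: Trem2, Tyrobp, Apoe, Lpl, Cd9, Axl, Clec7a, Itgax, Cst7 and Spp1. They were picked by symbol from the 32286 feature rows of 6 single-cell matrices, and 9 of the 10 matched a row. Clec7a, the beta-glucan receptor Dectin-1, matched none and was not analysed here. The genes were chosen for their known role and not by a measured value, but with earlier results of these data known.

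Microglia are the resident macrophages of the brain. Around amyloid plaques, in demyelination and in ageing, some of them lower the genes of the resting state and raise a set of genes for lipid handling, phagocytosis and lysosomal activity, and this change is called the disease-associated state. TREM2 is a surface receptor that binds lipids and lipoproteins, and it signals through the adaptor TYROBP. Entry into the full state, with its inducible genes such as Lpl, Cst7, Itgax and Cd9, is known to require TREM2. In the healthy brain microglia make Trem2 and Tyrobp strongly, while Lpl, Cst7, Itgax, Spp1 and Axl are low.

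The study removed claudin-5, the main tight junction protein of brain endothelium, from endothelial cells of adult mice and profiled isolated brain microvessels with 10x Genomics 3' chemistry. Cldn5 iECKO mice were C57Bl6, carried Cldn5 fl/fl with R26 YFP/YFP and had the Cdh5-creERT2+ transgene, whose promoter is active in endothelial cells. Control mice carried the same floxed and reporter alleles without that transgene, so they kept Cldn5. Tamoxifen (100 µl of a 20 mg/ml solution by mouth) was given for 3 days at about 3 months of age to both. There were 3 libraries per group. Whether a library held 1 animal or a pool was not stated, so the tests rest on how much these libraries varied, which may be technical in part. Vessel fragments were captured with PECAM1 antibody on beads, so the microglia came along with vessels and are not a sample of all brain microglia.

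The deposited matrices held 2714 to 7420 barcodes in Cldn5 iECKO libraries and 4049 to 6684 in Control libraries, with 15727366 to 49350802 unique molecular identifiers (UMIs, counted transcripts) per library. At most 16 barcodes were shared by any pair of libraries. Cldn5, the deleted gene, stood at 2692, 2196 and 3121 CPM in endothelial cells of Cldn5 iECKO libraries, against 4567, 4003 and 5374 CPM in Control libraries, lower in every Cldn5 iECKO library. Whether the counted 3' tags lie within the deleted part was not given in the sources used here. One cluster held the microglia. All 14 of its marker genes were detected, and Cx3cr1, C1qc, C1qa, C1qb and P2ry12 led it. After doublets and mixed barcodes were removed it gave 158, 35 and 78 cells in Cldn5 iECKO libraries 1, 2 and 3, and 147, 119 and 107 cells in Control libraries 1, 2 and 3. Cldn5 iECKO 2 stood apart: it had the fewest microglia, and 8 of its 35 carried at least 2 markers of perivascular macrophages (Mrc1, Pf4, Lyve1 and 8 more), against 1 cell in each of the other Cldn5 iECKO libraries and 1, 0 and 3 in the Control libraries. Levels below are CPM, the gene's summed UMIs scaled to a common total of UMIs for the cells of that class in a library.

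The members lie on several chromosomes of the mouse genome (GRCm38). Trem2 (ENSMUSG00000023992) is on the plus strand of chromosome 17 (48346401 to 48354147), Tyrobp (ENSMUSG00000030579) on the plus strand of chromosome 7 (30413760 to 30417585), Apoe (ENSMUSG00000002985) on the minus strand of chromosome 7 (19696109 to 19699188), Lpl (ENSMUSG00000015568) on the plus strand of chromosome 8 (68880491 to 68907448) and Cd9 (ENSMUSG00000030342) on the minus strand of chromosome 6 (125460266 to 125494791). Axl and Itgax are also on chromosome 7, Cst7 is on chromosome 2 and Spp1 on chromosome 5. Cd9 overlaps 2 annotated transcripts of the opposite strand (Gm28809 and Gm26728), and Spp1 overlaps Gm42793 on its own strand.

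Promoters are printed for Trem2, Apoe and Cd9, whose levels across cell classes the results turn on. Trem2 was near 0 outside microglia, Apoe was highest in endothelial cells among the 4 main classes, and Cd9 was shared by microglia and smooth muscle. Each sequence runs from 250 bases before to 50 bases within the gene, 5′ to 3′ on the gene's strand, from RefSeq (GRCm38.p6). The table held such a sequence for 8 of the 10 members. Capitals mark the letters GAGGAA or their reverse complement TTCCTC, a core bound by PU.1, the lineage factor of macrophages and microglia.
Trem2, chr17:48346151-48346450, plus strand: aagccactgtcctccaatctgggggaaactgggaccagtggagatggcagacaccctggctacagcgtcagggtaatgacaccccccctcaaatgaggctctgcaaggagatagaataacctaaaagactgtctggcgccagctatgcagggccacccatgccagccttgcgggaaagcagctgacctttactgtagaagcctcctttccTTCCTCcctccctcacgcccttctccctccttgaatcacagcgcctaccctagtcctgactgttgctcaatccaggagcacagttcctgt
Apoe, chr7:19699139-19699438, minus strand: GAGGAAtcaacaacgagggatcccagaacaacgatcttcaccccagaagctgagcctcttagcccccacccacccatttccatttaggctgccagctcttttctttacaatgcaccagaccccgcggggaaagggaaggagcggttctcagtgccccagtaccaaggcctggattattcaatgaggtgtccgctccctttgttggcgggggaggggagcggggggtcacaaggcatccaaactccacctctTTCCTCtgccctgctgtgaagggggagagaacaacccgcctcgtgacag
Cd9, chr6:125494711-125495010, minus strand: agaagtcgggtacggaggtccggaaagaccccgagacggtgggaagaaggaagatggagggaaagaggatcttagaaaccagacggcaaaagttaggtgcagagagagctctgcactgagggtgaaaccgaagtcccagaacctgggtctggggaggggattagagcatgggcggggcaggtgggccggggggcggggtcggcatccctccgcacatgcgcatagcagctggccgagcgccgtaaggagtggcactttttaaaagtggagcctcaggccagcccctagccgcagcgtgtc

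On both strands, the Trem2 window held 1 GAGGAA match, which began 40 bases before the start site on the minus strand. It also held 1 AP-1 match (TGANTCA) 9 bases before the start site. The Apoe window held 2 GAGGAA matches, and 3 start sites are listed for Apoe, of which this window covers 1. The Cd9 window held none of the 5 motifs searched. GAGGAA was found in 28.3% and TGANTCA in 7.81% of 32851 promoter windows of this length. The other 3 motifs, NF-kappaB (in 0.411% of windows), CREB (TGACGTCA, 1.79%) and an E-box (CACGTG, 7.15%), matched in none of the 8 members' windows. Such matches are descriptions of letters and not of binding.

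In microglia of Cldn5 iECKO vessels the genes of the receptor complex and Apoe differed from Control, in CPM as defined above, by less than the spread between libraries. Lpl and Cd9 were higher in every numbered pair of libraries, and the remaining inducible members were at a few UMIs in both genotypes. How many of all tested genes were likewise higher in every pair was not counted. Agreement of pairs is therefore a description, here and below. For Lpl it was lost without macrophage-marked cells, with 0 CPM in Cldn5 iECKO 2 against 10.8 CPM in Control 2. A gene entered the test if it reached the count filter in at least 3 libraries, and 5 of the 9 measured members did (Trem2, Tyrobp, Apoe, Lpl and Cd9). In edgeR's quasi-likelihood test with Benjamini-Hochberg adjustment at 0.05, none of the 5 was called, where 3 of 6359 genes (0.0472%), Ccl12, Plaur and Cd74, were called higher and 0 lower. At an unadjusted p under 0.05 there were 2 of the 5, Lpl and Cd9, where 272 of the 6359 genes did so. Lpl reached the count filter only through the Cldn5 iECKO libraries, where it was high, so its place in this count supports nothing about the members. DESeq2 called none of the members and 1 of 14670 genes (0.00682%).

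Libraries with the same replicate number deviated together across genotypes in each cell class, so the fit with that number as a block is also given. It called 1 of the 5 members, Lpl, where 21 of 6359 genes (0.33%) were called higher and 1 (0.0157%) lower. Because Lpl could be tested only through its high Cldn5 iECKO libraries, this share is not a result about the members. The number 2 libraries of both genotypes shared 1 further trait, an endothelial cluster led by Xist and Tsix. It held 28, 336 and 6 cells in Cldn5 iECKO libraries 1, 2 and 3, and 41, 1324 and 7 cells in Control libraries 1, 2 and 3. What set these libraries apart was not tested. A sign of cell quality also differed by genotype. The median mitochondrial share of UMIs in microglia was 2.43%, 2.68% and 2.89% in Cldn5 iECKO libraries, against 1.85%, 2.28% and 1.36% in Control libraries, and over all cells kept it was 4.04%, 4.28% and 4.58% in Cldn5 iECKO, against 3.60%, 3.62% and 3.28% in Control. Neither set of values overlapped, and their part in the Lpl and Cd9 differences was not tested.

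Trem2, the lipid-sensing receptor, had 1159, 212 and 976 UMIs (2178, 1694 and 2317 CPM) in Cldn5 iECKO microglia, against 1311, 664 and 1362 UMIs (2465, 1790.1 and 2494 CPM) in Control microglia. The groups overlapped, and library 2 was lowest in both. The means were 2063 ± 327 CPM in Cldn5 iECKO and 2249 ± 398 CPM in Control (SD, n = 3 libraries each), a log2 difference of -0.14 ± 0.21 (SE; edgeR adjusted p = 0.997). Trem2 was lower in Cldn5 iECKO in all 3 numbered pairs, and in this plain CPM the means differed by less than either SD. With the TMM library factors that the test used, they were 2139 ± 191 CPM in Cldn5 iECKO and 2359 ± 220 CPM in Control. That gap was about as large as the SDs.

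Tyrobp, the signalling adaptor that TREM2 needs, stood at 2420.2, 2166 and 2433 CPM in Cldn5 iECKO microglia, against 2668, 1577 and 2497 CPM in Control microglia. Control 2 was the one low library. The log2 difference was 0.05 ± 0.21 (edgeR adjusted p = 0.997). Both genes were found in most cells. With each cell thinned to 1000 UMIs, 78.6% ± 11.9 of Cldn5 iECKO and 84.5% ± 8.45 of Control microglia had a Trem2 UMI (SD, n = 3 each; exact permutation p = 0.6, two-sided, smallest possible p 0.1). For Tyrobp the shares were 81.8% ± 4.84 and 78.4% ± 15.5 in Cldn5 iECKO and Control (exact permutation p = 0.9).

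**Figure D1:**
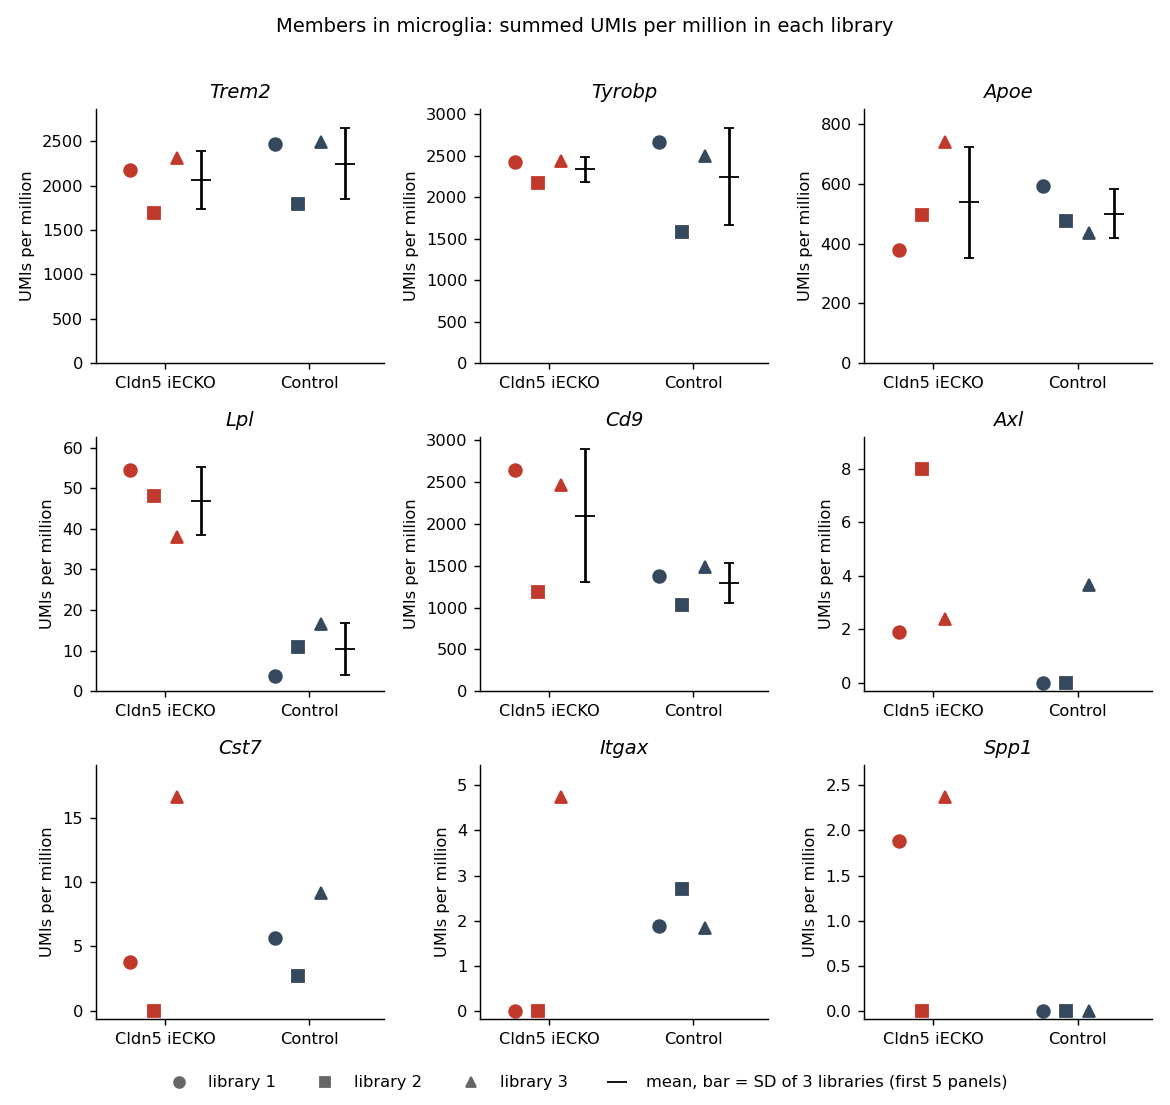
Level of the 9 measured members in microglia, in CPM, for Cldn5 iECKO (red, left) and Control (dark, right); each point is 1 library, and the black bar is the mean with its SD over 3 libraries, drawn where a member passed the count filter. Lpl runs from 38.0 to 54.5 CPM in Cldn5 iECKO and from 3.76 to 16.5 CPM in Control, while Trem2, Tyrobp and Apoe overlap between the genotypes, and the last 4 panels rest on at most 7 UMIs per library.

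Apoe, the apolipoprotein that carries lipid between brain cells, had 201, 62 and 312 UMIs (378, 496 and 741 CPM) in Cldn5 iECKO microglia, against 315, 176 and 238 UMIs (592, 474 and 436 CPM) in Control microglia. The lowest and the highest library were both Cldn5 iECKO. The log2 difference was 0.06 ± 0.23 (edgeR adjusted p = 0.997). Its sign was not stable: without the macrophage-marked cells it was -0.17, and over 21 alternatives it ran from -0.20 to 0.55 with adjusted p from 0.877 to 1.00.

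Single cells weighed on the Apoe level. In Control 1, 1 cell held 171 of the 315 UMIs, and without that cell the library's level was 273 CPM. In Cldn5 iECKO 2, 1 cell with 3 perivascular macrophage markers and 13 microglia markers held 33 of the 62 UMIs, and without it the level was 239 CPM. In the other 4 libraries the top cell held 9.09% to 15.1% of the UMIs. At 1000 UMIs per cell, 22.2%, 20.0% and 32.1% of Cldn5 iECKO microglia had an Apoe UMI, against 10.9%, 27.7% and 26.2% of Control microglia (means 24.7% ± 6.43 and 21.6% ± 9.31, exact permutation p = 0.7).

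RNA free in the suspension adds UMIs to every droplet, and endothelial cells held more Apoe than microglia did. Cldn5, which microglia do not make, was in microglia at 2.23%, 3.28% and 0.456% of its endothelial level in Cldn5 iECKO libraries, and at 1.07%, 3.70% and 0.818% in Control libraries. Apoe in microglia was at 46.7%, 53.9% and 66.9% of its endothelial level in Cldn5 iECKO libraries and at 49.1%, 49.6% and 39.2% in Control libraries. Other clusters also held Apoe, so the share of Cldn5 gives no measure of free Apoe. The part of free RNA in the microglial Apoe level was not tested.

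Lpl, lipoprotein lipase, which frees fatty acids from lipoproteins, had 29, 6 and 16 UMIs (54.5, 48.0 and 38.0 CPM) in Cldn5 iECKO microglia, against 2, 4 and 9 UMIs (3.76, 10.8 and 16.5 CPM) in Control microglia. The groups did not overlap. The means were 46.8 ± 8.32 CPM in Cldn5 iECKO and 10.3 ± 6.37 CPM in Control, a log2 difference of 2.13 ± 0.45 (SE; edgeR adjusted p = 0.0599). With the replicate number as a block it was 2.15 ± 0.45 (edgeR adjusted p = 0.0117), and with no filter on low counts 2.11 ± 0.46 (edgeR adjusted p = 0.0105). DESeq2 gave 2.15 with an adjusted p of 1.00. Lpl reached the count filter only through the Cldn5 iECKO libraries, so it could be tested only because it was high there, and its place among the tested members supports nothing by itself.

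The Lpl difference rested on few cells. In all, 20 of 271 Cldn5 iECKO microglia held 51 Lpl UMIs, against 12 of 373 Control microglia with 15 UMIs. One cell held 11 of the 16 UMIs of Cldn5 iECKO 3, and another held 5 of the 6 of Cldn5 iECKO 2. All 6 UMIs of Cldn5 iECKO 2 were in the 8 cells with perivascular macrophage markers. These cells carried microglial transcripts too. The cell with 5 of the 6 UMIs had 2 macrophage markers and 14 microglia markers. The 8 cells held 43 P2ry12 UMIs, and the other 27 cells of that library held 191. Without macrophage-marked cells the levels were 55.1, 0 and 38.1 CPM in Cldn5 iECKO, against 3.79, 10.8 and 15.1 CPM in Control. The groups then overlapped, and Lpl no longer reached the count filter. Without the filter as well, a combination added after the data were seen, the log2 difference was 1.98 (edgeR adjusted p = 0.0483). Without Cldn5 iECKO 1 the log2 difference was 1.90 (edgeR adjusted p = 0.999), and without Control 1 it was 1.70 (edgeR adjusted p = 0.577).

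The share of cells with an Lpl UMI was less clear than the sum. At 1000 UMIs per cell it was 3.80%, 2.86% and 2.56% in Cldn5 iECKO, against 0.68%, 0% and 3.74% in Control (3.07% ± 0.64 and 1.47% ± 1.99, exact permutation p = 0.3). The 0 of 119 cells in Control 2 allows a share of up to 3.05% (exact binomial 95% limit, counting error only). At 2000 UMIs per cell the shares were 6.06%, 8.0% and 4.35% in Cldn5 iECKO, against 1.45%, 1.39% and 3.88% in Control, and the groups did not overlap (exact permutation p = 0.1, the smallest that 3 against 3 allows). The 8.0% of Cldn5 iECKO 2 rested on 25 cells, and every Lpl UMI of that library lay in a macrophage-marked cell. The lack of overlap at this depth thus depended on those cells.

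Cd9, a tetraspanin of the plasma membrane that is also present on resting microglia, had 1408, 149 and 1038 UMIs (2646, 1191 and 2464 CPM) in Cldn5 iECKO microglia, against 730, 381 and 812 UMIs (1372, 1027 and 1487 CPM) in Control microglia. Cldn5 iECKO 1 and 3 were above all Control libraries, and Cldn5 iECKO 2 was between Control 2 and Control 1. Cd9 was higher in Cldn5 iECKO in all 3 numbered pairs. The means were 2100.1 ± 793 CPM in Cldn5 iECKO and 1295 ± 239 CPM in Control, a log2 difference of 0.68 ± 0.23 (edgeR adjusted p = 0.797). As a block, the replicate number gave 0.63 ± 0.16 (edgeR adjusted p = 0.0878). When the macrophage-marked cells were also left out, the blocked difference was 0.67 (edgeR adjusted p = 0.00178). That combination of 2 choices was not planned and was added after the data were seen. Over all 21 alternatives the difference stayed positive, from 0.45 to 0.93. Their adjusted p ran from 0.00178 to 1.00, with 2 of them, that combination included, under 0.05.

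Unlike Lpl, Cd9 was spread over the whole population. The top cell held 2.77%, 10.7% and 3.85% of the Cd9 UMIs in Cldn5 iECKO libraries and 3.70%, 4.46% and 4.93% in Control libraries. At 1000 UMIs, a microglial cell held a mean of 2.67, 1.26 and 2.64 Cd9 UMIs in Cldn5 iECKO, against 1.40, 0.91 and 1.74 in Control. Cells with 3 or more were 43.0%, 14.3% and 46.2% in Cldn5 iECKO, against 21.1%, 8.40% and 29.0% in Control. Cells with at least 1 were 92.4%, 62.9% and 82.1% in Cldn5 iECKO, against 70.7%, 53.8% and 75.7% in Control (79.1% ± 15 and 66.7% ± 11.5, exact permutation p = 0.4). Each of these 3 measures was higher in Cldn5 iECKO in every numbered pair and overlapped between the groups.

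**Figure D2:**
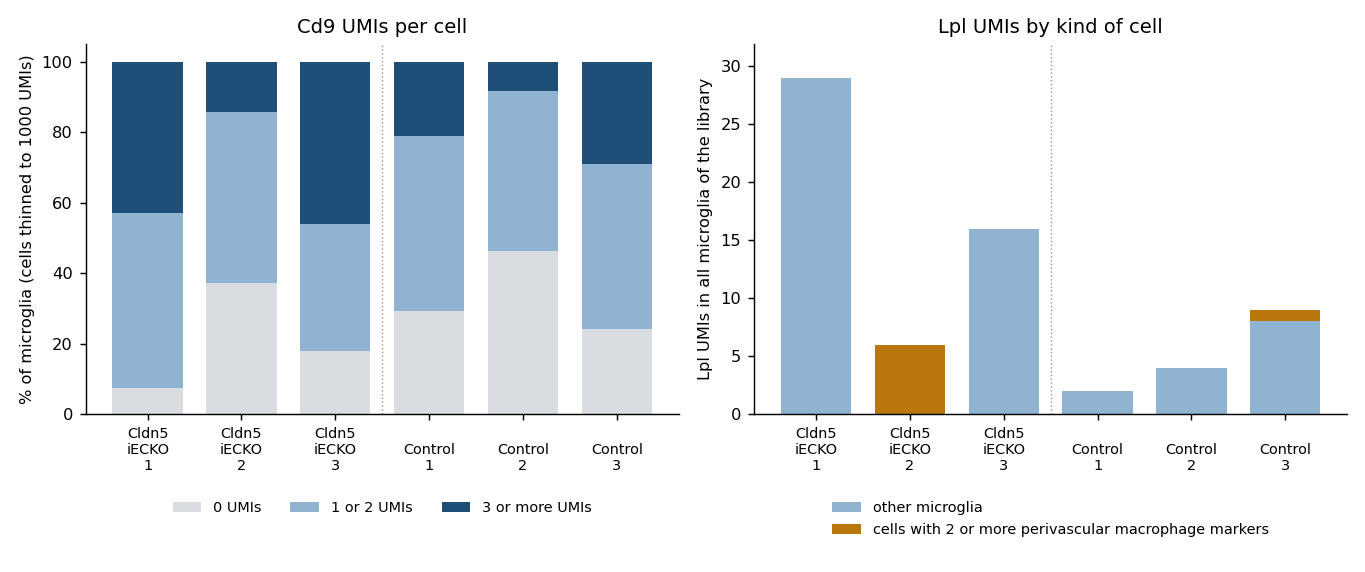
Left, percent of microglia with 0, 1 or 2, and 3 or more Cd9 UMIs after each cell was thinned to 1000 UMIs; right, Lpl UMIs in the microglia of each library, split into cells with 2 or more perivascular macrophage markers and the rest; the 3 Cldn5 iECKO libraries are left of the dotted line. Cells with 3 or more Cd9 UMIs make up 43.0%, 14.3% and 46.2% of Cldn5 iECKO microglia against 21.1%, 8.40% and 29.0% of Control microglia, and all 6 Lpl UMIs of Cldn5 iECKO 2 lie in macrophage-marked cells.

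**Figure D3:**
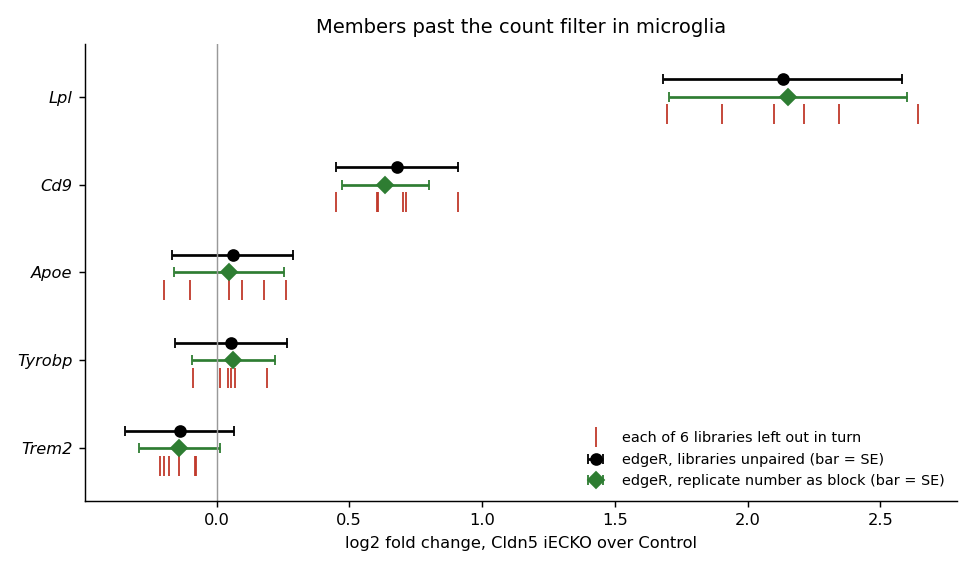
Log2 fold change of Cldn5 iECKO over Control in microglia for the 5 members that passed the count filter, from edgeR without pairing (black circles) and with the replicate number as a block (green diamonds), with SE bars, and from the 6 fits that each leave out 1 library (red ticks). Lpl stays between 1.70 and 2.64 and Cd9 between 0.45 and 0.91 when 1 library is left out, whereas Apoe and Tyrobp fall on both sides of 0.

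The other 4 measured members did not reach the count filter of the main test. With no filter, edgeR gave adjusted p of 0.869 to 0.979 for them, and DESeq2 called none of them. Axl, a TAM-family receptor for phosphatidylserine-bound ligands, had 1, 1 and 1 UMIs in Cldn5 iECKO microglia, against 0, 0 and 2 in Control. Itgax, the integrin subunit CD11c, had 0, 0 and 2 in Cldn5 iECKO, against 1, 1 and 1 in Control. Cst7, the cysteine protease inhibitor cystatin F, had 2, 0 and 7 in Cldn5 iECKO, against 3, 1 and 5 in Control. Spp1, the secreted phosphoprotein osteopontin, had 1, 0 and 1 in Cldn5 iECKO, against 0 in all 3 Control libraries. With 3 UMIs as the floor, the smallest level that could be told from 0 was 5.64, 24.0 and 7.12 CPM in the Cldn5 iECKO libraries, and 5.64, 8.09 and 5.49 CPM in the Control libraries. Differences between the genotypes were not detectable for these 4 genes at this depth.

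At 1000 UMIs the share of positive microglia overlapped between the genotypes for all 9 measured members. How many of all genes overlapped in this way was not counted, so this too is a description. The share of Cst7-positive cells was 0.638% in Cldn5 iECKO and 0.623% in Control, that of Spp1 0.211% and 0%, that of Axl 0% and 0.312%, and that of Itgax 0% and 0.227%, each the mean of 3 libraries.

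**Figure D4:**
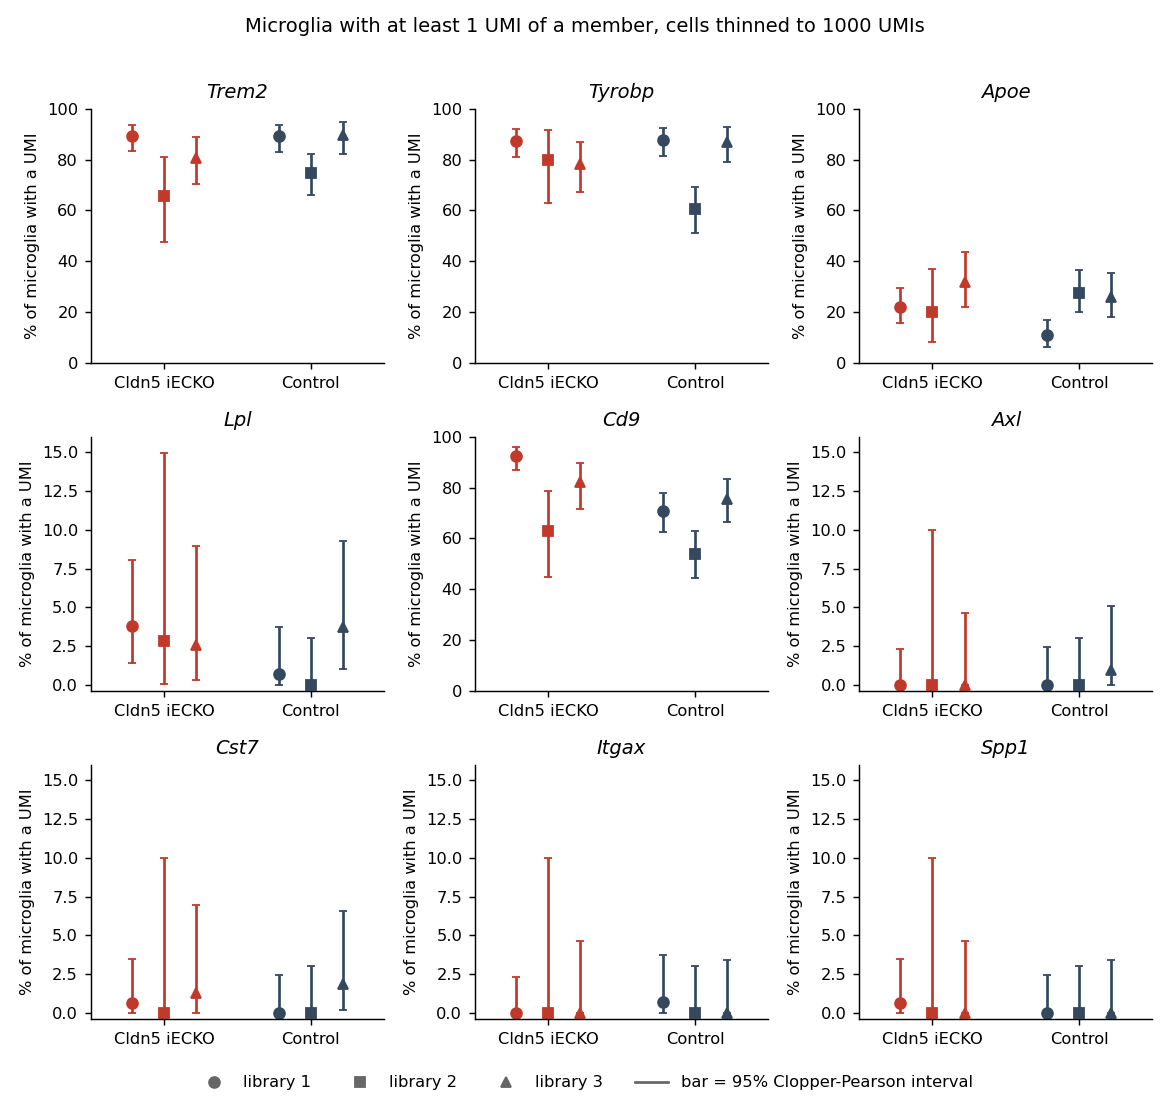
Percent of microglia with at least 1 UMI of a member after each cell was thinned to 1000 UMIs, by library, for Cldn5 iECKO (red, left) and Control (dark, right), with 95% Clopper-Pearson intervals that cover counting error only; panels of members under 16% have their own axis. Trem2, Tyrobp and Cd9 are found in most cells, Apoe in 10.9% to 32.1%, and the other 5 members in at most 3.80%.

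Few cells held several inducible members at once. Of Lpl, Cst7, Spp1, Axl, Itgax and Cd9, at least 2 were found in 8 of 158, 0 of 35 and 3 of 78 Cldn5 iECKO microglia at 1000 UMIs (5.06%, 0% and 3.85%), against 2 of 147, 0 of 119 and 7 of 107 Control microglia (1.36%, 0% and 6.54%). The means were 2.97% ± 2.64 in Cldn5 iECKO and 2.63% ± 3.45 in Control (SD, n = 3 each), and at 2000 UMIs 6.89% ± 2.21 in Cldn5 iECKO and 3.59% ± 1.96 in Control. The groups overlapped at both depths. At either depth no cell held 3 or more of the 6, and 1 of each pair was always Cd9.

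Without thinning, all 32 cells with an Lpl UMI also had Cd9 and Trem2 UMIs, but so did 568 of the 644 microglia for Cd9 with Trem2. Lpl and Cst7 met in 4 cells, which were 12.5% of the Lpl-positive and 28.6% of the 14 Cst7-positive cells, and these 4 also had Cd9, so without thinning some cells did hold 3 of the 6. Apoe was found in 15 of the 32 Lpl-positive and 11 of the 14 Cst7-positive cells. Deeper cells show more genes, so these overlaps are given as counts.

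The rest of the disease-associated program was described with lists of genes, chosen with earlier results known. Of 29 tested further disease-associated genes (38 listed), 1 was called higher without pairing and 3 with the block, and 0 lower in either fit. Over all 6359 genes the shares called higher were 0.0472% without pairing and 0.33% with the block, and those called lower 0% and 0.0157%. Among the 29, 23 had a positive log2 difference, with a median of 0.22. Of all 6359 genes, 49.6% were positive with a median of 0.00. Cd74, the invariant chain of MHC class II, stood at 67.5 ± 27.1 CPM in Cldn5 iECKO, against 19.1 ± 7.21 CPM in Control (1.95 ± 0.37, edgeR adjusted p = 0.0135). At that level the Control libraries could not have reached the count filter on their own. Like Lpl, Cd74 was thus tested only through the Cldn5 iECKO libraries, where it was high, and its call supports nothing by itself. That call depended on which cells were counted: the difference was 0.54 with doublets kept, -0.24 with the members kept in clustering and -1.84 under a stricter marker gate, none of them called. It was also not called by DESeq2 (1.88), or without Cldn5 iECKO 1 (1.81), Cldn5 iECKO 3 (1.86) or Control 1 (1.66). Ccl4 and Ccl3, chemokines that draw leukocytes, were called in the blocked fit only (1.58 ± 0.16 and 1.56 ± 0.17, edgeR adjusted p = 9.63e-09 and 1.86e-08); without pairing the adjusted p was 0.238 for Ccl4 and 0.997 for Ccl3.

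The lysosomal proteases Ctsb and Ctsd, named after their values were seen, were not called. Ctsb stood at 1822 ± 423 CPM in Cldn5 iECKO and 1337 ± 81.8 CPM in Control (0.44 ± 0.21, edgeR adjusted p = 0.997). Ctsd differed by 0.08 ± 0.21 (edgeR adjusted p = 0.997). Markers of B cells, which also make Cd74, summed to 177 to 240 CPM in Cldn5 iECKO microglia and 197 to 282 CPM in Control microglia, from 2 of 6 markers. Markers of perivascular macrophages summed to 130, 360 and 131 CPM in Cldn5 iECKO, against 164, 127 and 168 CPM in Control, with 2 to 4 of 11 detected. The part of these cells in the Cd74 difference was not tested.

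None of 21 tested genes of resting microglia was called in either fit. Of the 21, 1 had a positive log2 difference, with a median of -0.23, beside 49.6% positive over all tested genes. Examples chosen after their values were seen follow. P2ry12, the purinergic receptor of microglial processes, averaged 2235 ± 202 CPM in Cldn5 iECKO and 2891 ± 419 CPM in Control (-0.37 ± 0.21, edgeR adjusted p = 0.997). Tmem119 differed by -0.24 ± 0.23 and Cx3cr1, the fractalkine receptor, by -0.30 ± 0.22 (edgeR adjusted p = 0.997 for both).

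Partners of the members were likewise not called. The counts of positive genes below stand beside 49.6% positive over all tested genes. Of 20 genes of TREM2 and TYROBP signalling 0 were called and 8 were positive, with a median log2 difference of -0.05. Of 12 lipid handling genes 0 were called (6 positive, -0.04), of 6 TAM receptor and phosphatidylserine genes 0 (2 positive, -0.10), of 6 osteopontin receptor and integrin genes 0 (2 positive, -0.30) and of 11 other tetraspanins 0 (6 positive, 0.05). None of 20 immediate-early and dissociation stress genes was called (6 positive, -0.11), nor any of 6 interferon-induced (5 positive, 0.55) and 3 proliferation genes (3 positive, 0.88).

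Outside microglia the members split by cell class. The classes come from clustering the same cells, so the levels across them are a description. The members and Cldn5 were left out of clustering. Of 818 barcodes in the pericyte cluster 368 remained after mixed barcodes were left out, and of 679 in the smooth muscle cluster 651 remained. The endothelial class pooled clusters that were unevenly shared. One led by Apln, Adamts9 and Tubb6 held 2579, 356 and 123 cells in Cldn5 iECKO libraries 1, 2 and 3, against 39, 21 and 13 in Control libraries. Endothelial levels and genotype differences therefore mix the make-up of the class with levels within clusters, and these were not separated. Trem2 averaged 2156 ± 341 CPM in microglia over the 6 libraries (SD), against 1.17 ± 0.42 CPM in endothelial cells, 2.03 ± 3.16 CPM in pericytes and 1.19 ± 1.32 CPM in smooth muscle cells. Tyrobp averaged 2294 ± 386 CPM in microglia and, among the 3 vessel classes, at most 6.72 ± 7.01 CPM, in pericytes. Cst7 had 18 UMIs in microglia and 0 in all 22027 endothelial cells, 368 pericytes and 651 smooth muscle cells. Itgax had 5 UMIs in microglia and 3 in endothelial cells.

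**Figure D5:**
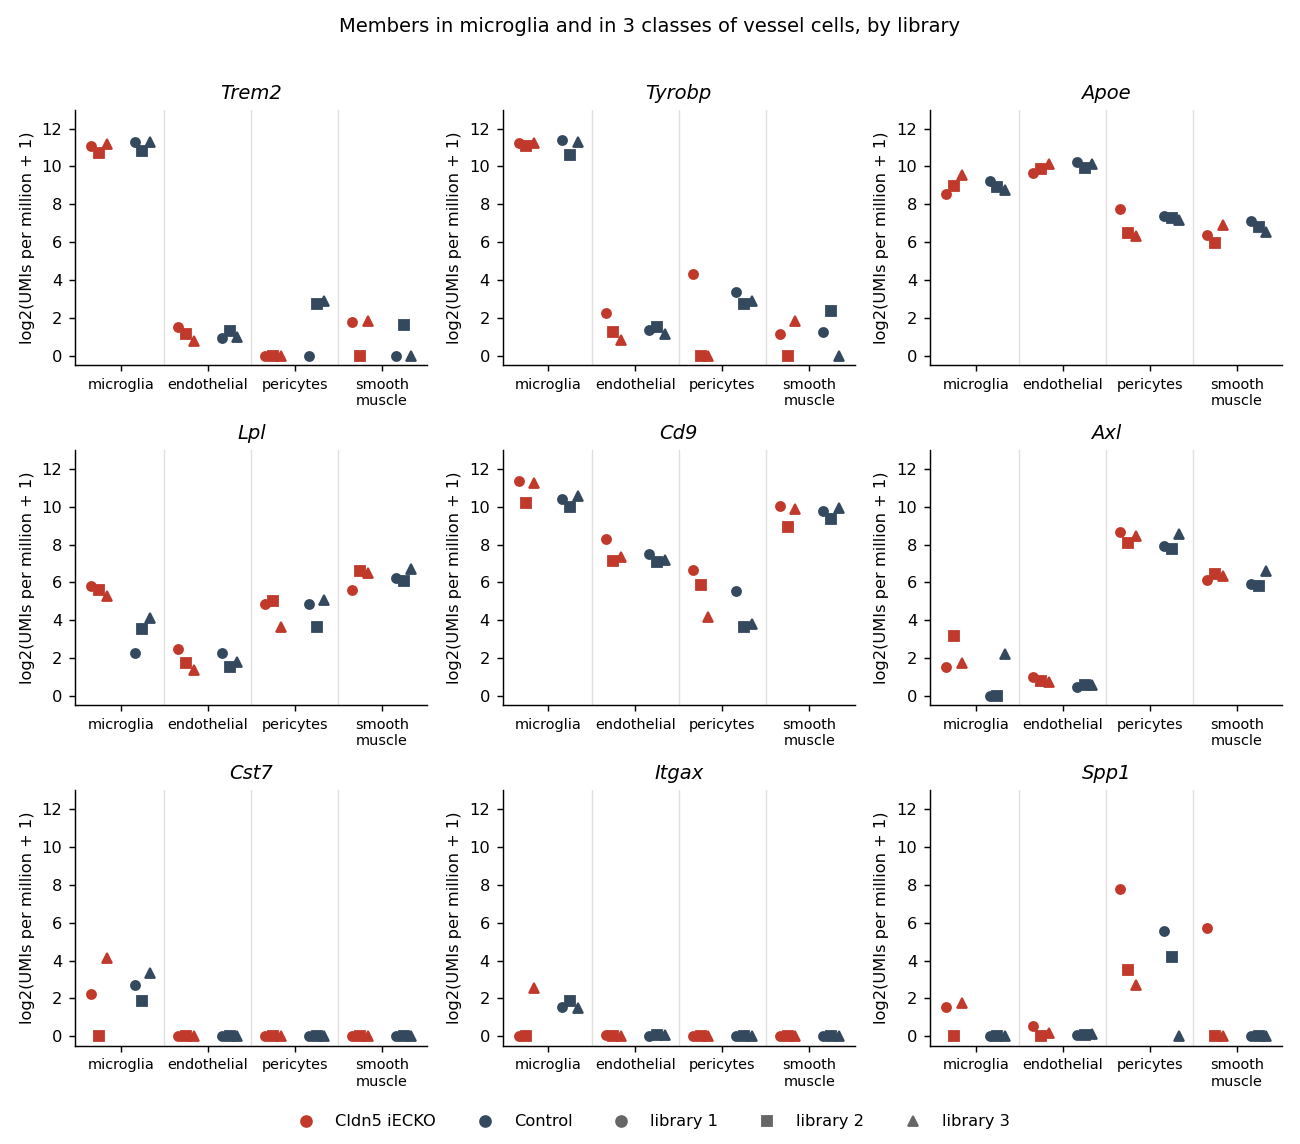
Level of the 9 measured members in microglia, endothelial cells, pericytes and smooth muscle cells, as log2(CPM + 1), for the 3 Cldn5 iECKO libraries (red, left) and the 3 Control libraries (dark, right) in each class. Trem2 and Tyrobp are high in microglia and near 0 in vessel cells, Apoe is highest in endothelial cells, Axl in pericytes and Lpl in smooth muscle cells.

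Apoe ran in the order endothelial cells (1018 ± 148 CPM), microglia (519 ± 130 CPM), pericytes (140.4 ± 50.2 CPM) and smooth muscle cells (101 ± 28.2 CPM). Pericytes and smooth muscle cells overlapped, and the lowest endothelial library (809 CPM) was above the highest microglial one (741 CPM). Among endothelial clusters with zone markers, the venous one was highest, at 1914 ± 339 CPM in Cldn5 iECKO and 2432 ± 483 CPM in Control. The capillary one had 1401 ± 266 CPM in Cldn5 iECKO and 1152 ± 200.5 CPM in Control, and the arterial ones 797 ± 96.5 CPM in Cldn5 iECKO and 904 ± 221 CPM in Control. Of the capillary cluster's cells, 475 of 545 in Cldn5 iECKO came from library 1, and 1419 of 1532 in Control.

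In endothelial cells as a whole Apoe stood at 809, 919 and 1107 CPM in Cldn5 iECKO, against 1207, 957 and 1112 CPM in Control. In this plain CPM it was lower in Cldn5 iECKO in all 3 numbered pairs, and the groups overlapped (-0.22 ± 0.18, edgeR adjusted p = 0.925). With the TMM library factors that the test used, pair 3 was not lower, at 999.6 CPM in Cldn5 iECKO and 995.5 CPM in Control. The difference between the genotype effect on Apoe in microglia and that in endothelial cells was 0.19 ± 0.25 on the log2 scale (edgeR interaction test, adjusted p = 0.999).

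Lpl ran in another order, with smooth muscle cells at 79.2 ± 21.0 CPM, microglia at 28.6 ± 21.0 CPM, pericytes at 23.7 ± 9.71 CPM and endothelial cells at 2.76 ± 1.16 CPM. Microglia, with their wide range, overlapped with each of the other 3 classes. In smooth muscle cells, where Lpl had 337 UMIs, it stood at 47.6, 95.8 and 88.5 CPM in Cldn5 iECKO, against 72.8, 66.3 and 104 CPM in Control (-0.26 ± 0.25, edgeR adjusted p = 0.997). The genotype effect on Lpl was larger in microglia than in endothelial cells by 2.04 ± 0.60 on the log2 scale, which missed the threshold (edgeR interaction test, adjusted p = 0.139), where 49 of 12887 genes (0.38%) passed in either direction. None of the 5 members tested in both classes passed.

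Cd9 was highest in microglia (1698 ± 684 CPM), then in smooth muscle cells (835 ± 217 CPM), endothelial cells (179 ± 67.1 CPM) and pericytes (40.6 ± 34.4 CPM). The ranges of microglia and smooth muscle overlapped across libraries, but within every library Cd9 was higher in microglia. In smooth muscle cells the genotypes were close, at 1063, 489 and 942 CPM in Cldn5 iECKO and 889, 657 and 968 CPM in Control (-0.02 ± 0.23, edgeR adjusted p = 0.997). In endothelial cells Cldn5 iECKO 1 stood out at 312 CPM, beside 139.8 and 162 CPM in the other Cldn5 iECKO libraries and 182, 135 and 145 CPM in Control (0.43 ± 0.32, edgeR adjusted p = 0.911). Cd9 was higher in Cldn5 iECKO in all 3 numbered pairs, and the block gave 0.33 ± 0.15 (edgeR adjusted p = 0.323). Without Cldn5 iECKO 1 the unpaired difference was -0.094. The part of the Apln-led cluster, most of whose cells came from that library, in the endothelial Cd9 level was not tested. In pericytes Cd9 had 21, 11 and 3 UMIs in Cldn5 iECKO, against 5, 2 and 2 in Control (99.1, 56.9 and 16.9 CPM against 46.1, 11.4 and 12.96 CPM). It was higher in Cldn5 iECKO in all 3 numbered pairs with overlapping groups, did not reach the count filter, and differed by 1.52 ± 0.55 with no filter (edgeR adjusted p = 0.804). The interaction of Cd9 between microglia and endothelial cells was 0.21 ± 0.25 (edgeR adjusted p = 0.993), so its difference was not shown to be particular to microglia.

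Axl was highest in pericytes, at 312 ± 79.5 CPM in pericytes, 74.9 ± 15.8 CPM in smooth muscle cells, 2.65 ± 2.98 CPM in microglia and 0.62 ± 0.22 CPM in endothelial cells, and only microglia and endothelial cells overlapped. Pericytes held 406, 269 and 355 CPM in Cldn5 iECKO, against 239.7, 217 and 382 CPM in Control (0.30 ± 0.27, edgeR adjusted p = 0.992). In endothelial cells it was at 0.97, 0.73 and 0.68 CPM in Cldn5 iECKO, against 0.38, 0.47 and 0.47 CPM in Control. These groups did not overlap, but the difference was not called (0.85 ± 0.38, edgeR adjusted p = 0.695), where 1 of 13270 genes (0.00754%) was called higher in endothelial cells. Pericyte markers were also at higher levels in these endothelial cells. All 10 had a positive log2 difference (median 0.88, beside 50.7% positive and a median of 0.00 over all genes), 0 called without pairing and 1 with the block, and their sum was 78.1, 99.2 and 68.1 CPM in Cldn5 iECKO, against 38.6, 59.6 and 39.1 CPM in Control. Their part in the Axl difference was not tested.

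Most Spp1 in pericytes and smooth muscle cells was in a few cells of 1 library. Pericytes had 58 UMIs in all, 47 of them in Cldn5 iECKO 1. Smooth muscle cells had 82 UMIs, all in 2 cells of Cldn5 iECKO 1. No member was called in the 3 vessel classes by edgeR without pairing, edgeR with the block or DESeq2, and no member that passed the filter there had an unadjusted edgeR p under 0.05 without pairing. Of those that did not pass, Cd9 in pericytes had one with no filter. Without pairing, edgeR called Prnd in endothelial cells (0.00754% of 13270 genes), Timp3 and Cxcl12 in pericytes (0.0635% of 3150) and Ifitm1 in smooth muscle cells (0.0145% of 6884). With the block it called 1.57%, 0.222% and 0.261% of genes in these 3 classes, and DESeq2 called 0.803%, 0.00736% and 0.00672%.

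Across 30 sums of class and library (6 classes with at least 20 cells), the genes whose log2(CPM + 1) followed a member most closely were P2ry13, Tbxas1 and Il1a for Trem2 (Pearson r = 0.977, 0.975 and 0.972) and Cd300c2, Itgam and Mpeg1 for Tyrobp (0.962, 0.962 and 0.961). For Cd9 they were Entpd1, Socs3 and Pmepa1 (0.891, 0.872 and 0.862), and for Apoe Gbp3, Ostf1 and Tspan13 (0.856, 0.830 and 0.824). The points share libraries and classes, so these values are a description of likeness across classes.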

How the data were processed

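UMI counts per gene and barcode were deposited by the authors as 6 filtered matrices. The file headers name Cell Ranger 6.1.1, and the build is mm10 per the submitters' processing notes. Libraries were grouped by the genotype in the labels. The members, lists and motifs were chosen with earlier results of these data known.

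A barcode was kept from 1000 UMIs and 500 genes upward if no more than 15% of its UMIs were mitochondrial (2207 to 6745 per library). The highest Scrublet scores, 0.8% per 1000 barcodes, were removed as doublets (39 to 364 per library). Cells were clustered in scanpy 1.11.5 (2000 variable genes, 40 components, 20 neighbours, Leiden resolution 1) without the members and Cldn5. A class needed 3 markers detected in 25% of a cluster's cells. The planned choice of the class with the largest share of markers put endothelial names on pericytes, so the class with the largest median log2 ratio of its markers was taken. Barcodes with 50% of another class's markers were left out as mixed.

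Raw counts were summed per library and class and tested with edgeR 4.0.16 (quasi-likelihood, TMM factors, filterByExpr, Benjamini-Hochberg over all genes tested) in R 4.3.3, after a test on simulated data. Plain CPM is given per library, and CPM with TMM factors for the list genes. Alternatives were DESeq2 1.42.0, other factors and filters, leaving out libraries and other cell sets; those that combine 2 choices were added after seeing the data. Same-numbered libraries deviated together: the correlation of their deviations from the group means was 0.190 to 0.201 in microglia, 0.424 to 0.518 in endothelial cells, 0.119 to 0.243 in pericytes and 0.167 to 0.226 in smooth muscle cells. The pairing comes from these correlations and the numbers in the labels. Shares of cells were taken after thinning, with Clopper-Pearson 95% intervals that cover counting error only. All members were named, with list genes past the threshold and the 3 genes most like 4 members; other genes were named after their values were seen.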

Additional observations from a re-analysis of the deposited data

How the results depend on the processing

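Microglia gave 125120 to 546175 UMIs per library, and Cldn5 iECKO 2 only 35 cells, which limits the low members. Genes called in microglia numbered 3 in the unpaired edgeR fit, 1 with DESeq2, 14 with no filter on low counts, 22 with the replicate block and 0 with a stricter marker gate. They numbered 54 with the block and without macrophage-marked cells, 38 with the block and no filter, 15 without macrophage-marked cells and no filter, and 1 to 14 when 1 library was left out. Endothelial calls numbered 1, but 170 with DESeq2, 0 with RLE factors, 52 with no filter, 208 with the replicate block and 0 to 121 with 1 library left out. Pericyte calls numbered 2, but 1, 8, 7 and 0 to 7 under DESeq2, no filter, the block and leaving out 1 library. Smooth muscle calls numbered 1, but 13 with no filter, 18 with the block and 1 to 17 with 1 library left out. Calls for the difference between microglia and endothelial cells numbered 49, and 15 to 102 with 1 library left out. Members whose share of positive microglia did not overlap numbered 0, but 1 at 2000 UMIs, 1 with at least 2 UMIs and no thinning, and 0 to 1 with 1 library left out. The share of all genes without overlap was not counted, so these counts are not a result about the members. Apart from Lpl, Ccl3 and Ccl4, the block changed no other call named in the report. Apoe in microglia turned to -0.17 without macrophage-marked cells, to -0.17 with the block as well, to -0.19 with no filter as well, and to -0.11 with the members kept in clustering, and it ran from -0.20 to 0.26 with 1 library left out. Cd74 in microglia turned to -0.24 with the members kept in clustering and to -1.84 under the marker gate. Tyrobp in microglia turned to -0.027 without macrophage-marked cells and no filter, and ran from -0.090 to 0.19. With 1 library left out the endothelial differences ran from -0.55 to 0.47 for Lpl, -0.34 to 0.56 for Trem2, -0.64 to 0.82 for Tyrobp and -0.094 to 0.62 for Cd9. In pericytes Apoe ran from -0.85 to 0.014. In smooth muscle cells Lpl ran from -0.39 to 0.064, Axl from -0.051 to 0.25 and Cd9 from -0.29 to 0.21. The difference of effects ran from -0.75 to 0.12 for Trem2, -0.75 to 0.61 for Tyrobp and -0.056 to 0.40 for Cd9. The cause was not tested.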

Other observations

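Among small clusters outside the comparisons, fibroblasts held Apoe in every library and Spp1 in some of them, as sums over their cells. The fibroblast cluster held 9, 9 and 1 cells in Cldn5 iECKO libraries and 4, 9 and 3 cells in Control libraries. Its cells held 33, 0 and 0 Spp1 UMIs in Cldn5 iECKO libraries and 124, 0 and 120 in Control libraries, where all Control and Cldn5 iECKO microglia together held 2. Apoe there stood at 3200.1, 1640 and 3846 CPM in Cldn5 iECKO libraries and at 7189, 1961 and 1872 CPM in Control libraries. With so few cells no comparison was made.

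A leukocyte cluster led by Lyz2, H2-Eb1 and Ccl5 had 31, 3 and 24 cells in Cldn5 iECKO libraries and 28, 16 and 22 cells in Control libraries. The cluster held Tyrobp at 1242, 91.4 and 351 CPM in Cldn5 iECKO libraries and at 380, 653 and 1047 CPM in Control libraries. It held 5 Itgax UMIs in 58 Cldn5 iECKO cells and 8 in 66 Control cells. Its leading genes come from several leukocyte types, so it was given no cell type name. A cluster led by Ttr had 369 barcodes before mixed ones were left out. What remained was 19, 1 and 13 cells in Cldn5 iECKO libraries and 19, 1 and 0 cells in Control libraries. It held Apoe at 4269, 2778 and 3561 CPM in Cldn5 iECKO libraries and at 4793 and 2998 CPM in Control 1 and 2. The values of Cldn5 iECKO 2 and Control 2 are thus each those of 1 cell.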
